A study of Mus musculus with 10 samples.

Results

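RelA (p65), a DNA-binding and transactivating member of the NF-κB family, was mapped by chromatin immunoprecipitation followed by sequencing (ChIP-seq) at 3 h and at 8 h of lipopolysaccharide (LPS), and the lists of RelA-bound regions at the 2 times were compared. The cells were macrophages grown from bone marrow of C57BL/6J mice, with no genetic change stated, and neither library received dexamethasone (Dex), a synthetic glucocorticoid. LPS is a bacterial cell wall component that activates macrophages through Toll-like receptor 4. Each time had 1 library made with the same RelA antibody after cross-linking with formaldehyde, and a library of input DNA from untreated cells was the control. The labels do not say how many mice gave the cells. Other libraries of the series, 1 per condition, served as context. For RelA these were resting cells, cells given Dex 3 h before LPS (0, 3 and 8 h of LPS), and 8 h of LPS with late Dex. The time of the late Dex is not in the labels. The glucocorticoid receptor was mapped with Dex and with LPS and Dex. All 4972 regions at 3 h and 1878 at 8 h that did not overlap an input region by 1 bp or more were used, that is 6850 of the 115077 regions in the series. Of the deposited regions, 45 of 5017 at 3 h and 12 of 1890 at 8 h overlapped input and were left out.

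In resting cells NF-κB dimers that contain RelA are held in the cytoplasm by inhibitor proteins of the IκB family. LPS leads to degradation of the inhibitors, and RelA then enters the nucleus and binds promoters and enhancers of cytokine, chemokine and survival genes. Among its targets are the genes of its own inhibitors, whose renewed synthesis returns RelA to the cytoplasm, so that nuclear RelA in stimulated macrophages comes in phases. The comparison asks which regions carried RelA early and late in the response.

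Regions are named here by position on the mouse build mm9, as deposited. The gene tables at hand are on another build, so no gene is assigned to a region. The strength of a region is its highest tag density, a value of the authors' that describes the tallest point of the reads piled up in it. How it was scaled between libraries is not stated, so it is compared as a rank within a list. With 1 library per time, the spread between replicates is unknown and no test between times was possible. The bracketed ranges beside shares are Wilson 95% intervals and reflect counting error alone. The numbers of reads are not given in the sources used here.

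Most RelA regions of 8 h were also regions of 3 h, while most of the 3 h regions were not called at 8 h. By an overlap of at least 1 bp, 1556 of the 4972 regions at 3 h (31.3%, interval 30.0 to 32.6) met 1576 of the 1878 at 8 h (83.9%, 82.2 to 85.5). That left 3416 regions seen only at 3 h and 302 seen only at 8 h. The regions of both times took a larger part of the bound sequence than of the list at 3 h, 1145837 of 2821375 bp or 40.6%.

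The lists differ in length and in the lowest score they admit, and the shares move with both. The authors' z-score began at 8.88 at 3 h and at 10.9 at 8 h. Of the regions at 3 h alone, 42.7% (1457) had a score below the lowest of the 8 h list, against 8.61% (134) of the 3 h regions called at both times. When the 3 h list was shortened to its 1878 highest scores, the length of the 8 h list, the 8 h library shared 59.5% of them, and the shortened list in turn covered 60.5% of the 8 h regions.

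The stronger a region was within its own list, the more often it was called at the other time. At 3 h the share rose from 6.42% (4.56 to 8.97) in the lowest decile of tag density to 41.8% (37.5 to 46.3) in the eighth and 86.3% (83.1 to 89.1) in the highest. At 8 h it rose from 66.7% (59.7 to 73.0) to 99.5% (97.0 to 99.9). The rise at 3 h was thus steepest among the strongest regions, and the 8 h list had no decile below 66.7%. In the highest decile, 68 of 498 regions at 3 h had no 8 h counterpart, and 1 of 188 regions at 8 h had no 3 h counterpart.

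**Figure D1:**
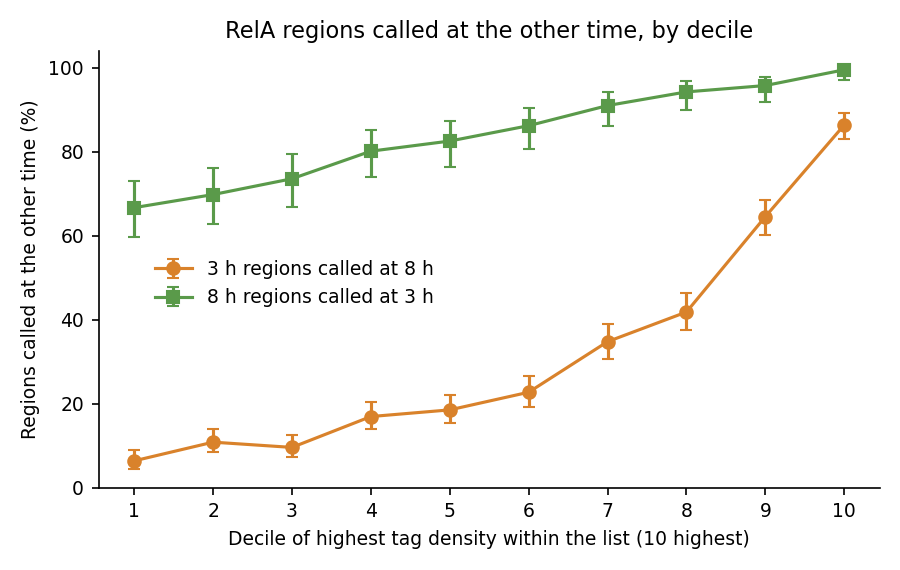
Share of RelA regions called at the other time (%, vertical axis) by decile of highest tag density within the 3 h list (circles) and the 8 h list (squares), with Wilson 95% intervals as bars. The share at 3 h climbs from 6.42% to 86.3%, and that at 8 h from 66.7% to 99.5%.

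Shared regions were followed in pairs, where a 3 h region met a single 8 h region and the reverse. This held for 1530 of the overlaps. The other 26 regions at 3 h and 46 at 8 h were joined in groups. In 19 cases a 3 h region met 2 regions of 8 h, in 2 cases it met 3, and in 3 cases an 8 h region met 2 of 3 h. The 3 h regions that met 3 were chr17:35334857-35339851, which at 4994 bp was the widest of the 3 h list and ranked 50 by tag density, and chr9:51981977-51983888, 1911 bp wide and ranked 448.

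Paired regions sat high in the 3 h list and in the middle of the 8 h list. Their median percentile rank of tag density was 78.8 among all 3 h regions and 55.96 among all 8 h regions, where 100 is the strongest; since the lists differ in length, these show position and no change. Ranked instead among the 1530 pairs alone, so that both times have the same number of ranks, tag density at 3 h and 8 h had a Spearman correlation of 0.63 across pairs. All points come from the same 2 libraries, and the correlation is a description.

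Order was kept best at the top. Of the 307 pairs in the highest quintile at 3 h, 202 (65.8%) were in the highest quintile at 8 h and 8 (2.61%) in the lowest. In the middle quintile at 3 h, 88 of 310 (28.4%) were in the middle quintile at 8 h, and in the lowest 139 of 307 (45.3%) were in the lowest. The highest and lowest quintiles can be left in 1 direction only, which by itself raises their shares above that of the middle. Of the 50 strongest pairs at 3 h, 30 were among the 50 strongest at 8 h. Of the 153 pairs in the top decile at each time, 91 were in the top decile at both.

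Strongest at both times was chr10:18734572-18735829. Its tag density was 171 at 3 h, rank 1 of the pairs, and 142 at 8 h, rank 3, with widths of 1257 and 1180 bp. The region chr17:18037460-18038460 had 134 and 160, ranks 5 and 1, and chr17:13202574-13203628 had 164 and 132, ranks 2 and 6. On chromosome 11, the region 117807380 to 117808507 had 133 at 3 h and 122 at 8 h, ranks 6 and 8. These 4 regions stayed within the first 8 ranks at both times.

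Next by summed rank, on chromosome 15, the region 6518733 to 6519830 had a tag density of 105 at 3 h and 148 at 8 h, ranks 13 and 2. On chromosome 10, the region 37057707 to 37058936 had 107 and 140.5, ranks 12 and 4. In the other direction, chr2:167602606-167603704 had 162 and 90.7, ranks 3 and 26. The remaining 3 of the first 10 were chr19:6945023-6946053 (ranks 9 and 7), chr6:134650462-134651470 (19 and 10) and chr17:29531743-29533017 (10 and 19).

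Over all 1530 pairs, 1358 (88.8%) overlapped a region of the glucocorticoid receptor (GR) with LPS and Dex, 316 (20.7%) one of GR with Dex, 192 (12.5%) a RelA region of the 8 h library with late Dex and 34 (2.22%) a resting RelA region. Of the 10 pairs, 10, 6, 10 and 6 did so, in the same order, and 3 were called at 3 h of LPS after Dex pretreatment (11 of all pairs).

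Most pairs changed rank little. The median absolute shift was 13.7 percentile points, and 968 pairs (63.3%) moved by less than 20 points. At 8 h 271 pairs (17.7%) ranked at least 20 points higher than at 3 h, and 291 (19.0%) ranked at least 20 points lower. Ranks within a fixed set must balance, so the 2 counts are no evidence of net gain or loss, and without replicates no single shift can be told from the spread of a repeat.

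**Figure D2:**
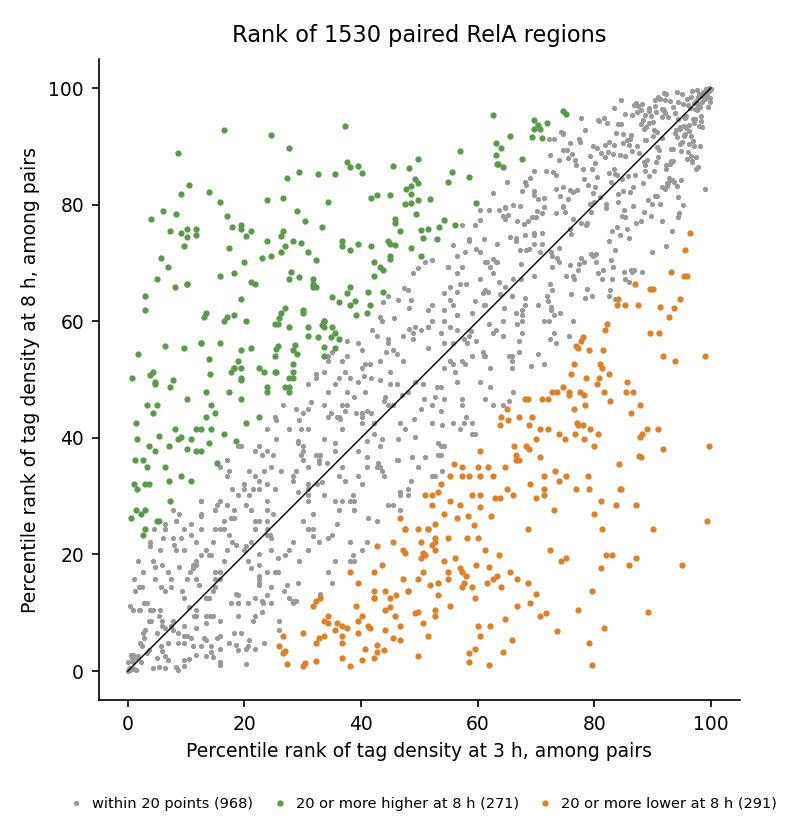
Percentile rank of highest tag density among the 1530 paired RelA regions at 3 h (horizontal axis) and 8 h (vertical axis), 100 being the strongest and the line marking equal rank. Each point is a pair; 271 pairs rank 20 or more points higher at 8 h, 291 rank 20 or more lower, and the points draw together at the upper right corner.

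The pairs that climbed furthest ranked low among the pairs at 3 h, and those that fell furthest ranked high, as the choice by shift in rank requires. At chr10:119627253-119627568 tag density was 15.4 at 3 h and 51.4 at 8 h, which took the region from rank 1399 to rank 172 of the 1530 pairs as its width went from 315 to 616 bp. At chr13:5784792-5785055 it was 17.5 and 59.0, ranks 1275 and 110, and the width went from 263 to 891 bp. This pair had the largest ratio of widths of all, 3.39. At chr4:33369644-33369895 tag density was 13.1 and 38.5, ranks 1468 and 342.

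Of the other 5 climbers, 2 lay on chromosome 2, at 117808852 to 117809307 (ranks 1316 and 272) and 118785588 to 118785892 (1368 and 253). The remainder were chr10:10176930-10177181 (1438 and 322), chr13:9158463-9158922 (1390 and 279) and chr1:52190017-52190379 (1402 and 331). In all 8 the 8 h region was the wider, by 1.45 to 3.39 times. GR with LPS and Dex met 8 of the 8, near the 88.8% of all pairs, GR with Dex met 1 (20.7% of all pairs), and 1 was called with late Dex (12.5%).

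Among the pairs that fell furthest, the highest-ranked at 3 h was chr17:26671788-26672874, with a tag density of 108 at 3 h, rank 11, and 21.2 at 8 h, rank 1132, as its width went from 1086 to 501 bp. At chr11:109271538-109272384 tag density was 68.6 and 19.5, ranks 75 and 1248. At chr12:112692579-112694992 it was 54.9 and 17.6, ranks 166 and 1375, and the width went from 2413 to 407 bp.

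The region chr4:129189041-129189800 ranked 311 at 3 h and 1515 at 8 h, where its width was 251 bp, the smallest in the list. The other 4 were chr9:121222987-121223683 (ranks 280 and 1416), chr2:101637237-101637946 (320 and 1452), chr14:62207074-62207791 (195 and 1232) and chr15:78164635-78165386 (214 and 1248). All but the region of chromosome 2 overlapped GR with LPS and Dex, 7 of 8 against 88.8% of all pairs. The regions of chromosomes 17 and 11 alone among the 8 overlapped GR with Dex and were called with late Dex. Of all pairs, 20.7% overlapped GR with Dex and 12.5% were called with late Dex.

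Within pairs the 8 h region was usually the narrower, although the lists as wholes had like median widths, 538 bp at 3 h and 547 bp at 8 h. Over the pairs, which sit higher in the 3 h list than in the 8 h list, the median width was 700 bp at 3 h (quartiles 584 and 828) and 577.5 bp at 8 h (451 and 691), and the median ratio of 8 h to 3 h was 0.836 (0.677 and 0.969). The 8 h region was the narrower in 1212 pairs (79.2%) and the wider in 313, and it lay wholly inside the 3 h region in 947 (61.9%). The reverse, a 3 h region wholly inside the 8 h region, held for 158 (10.3%). Their centres stayed close, with a median distance of 36 bp (16.5 and 66.4) and 1354 pairs (88.5%) within 100 bp.

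Width followed tag density. Across pairs the Spearman correlation of the 2 measures was 0.77 at 3 h and 0.84 at 8 h, and that of the shifts in rank of tag density and of width was 0.69. Width at 3 h and at 8 h correlated at 0.54. Among pairs that ranked at least 20 points lower at 8 h, 99.0% were narrower there, with medians of 751 and 463 bp. Among those at least 20 points higher, 37.6% were narrower, with medians of 576 and 619 bp. How the caller sets the edges of a region is not stated, and the part of library depth in the narrowing was not tested.

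The 4 lowest ratios of 8 h to 3 h width were at wide 3 h regions. At chr7:53965859-53969245 the 3 h region was 3386 bp wide and the 8 h region 288 bp. At chr12:27125626-27128222 the widths were 2596 and 251 bp, at chr5:92774129-92778540 they were 4411 and 491 bp, and at chr16:97666912-97668568 they were 1656 and 251 bp. The first and the third of these overlapped GR with LPS and Dex, 2 of 4 against 88.8% of all pairs. After chr13:5784792-5785055, the highest ratios were at chr6:15633641-15633892 (251 to 783 bp), chr2:44812025-44812467 (442 to 1221 bp) and chr4:33369644-33369895 (251 to 665 bp). All 4 pairs with the highest ratios overlapped GR with LPS and Dex.

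**Figure D3:**
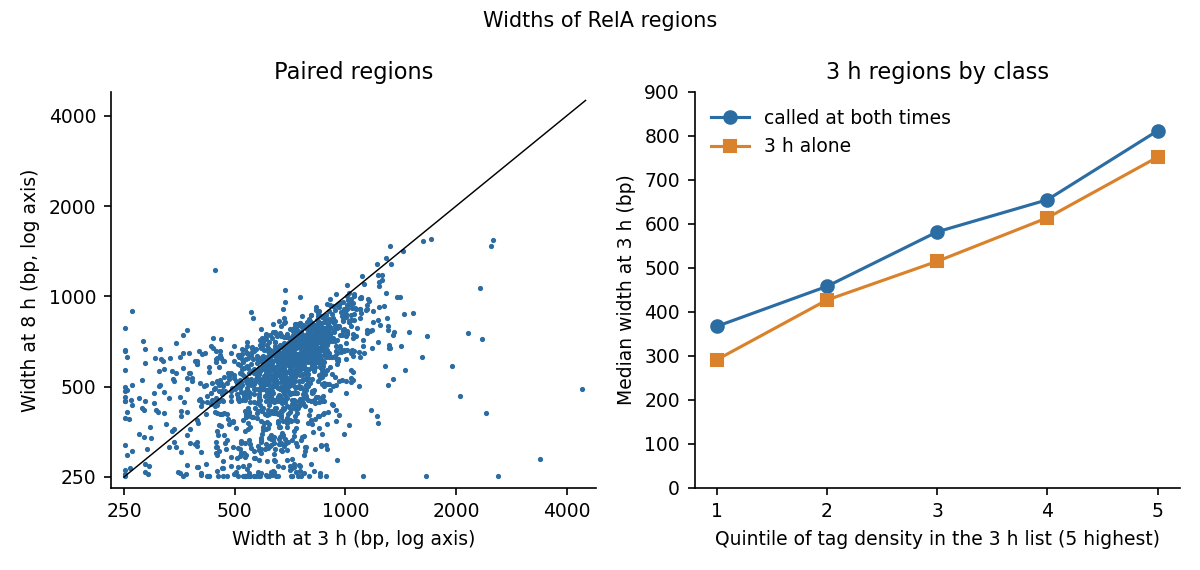
Left, width of each of the 1530 paired regions at 3 h and 8 h (bp, log axes), with a line of equal width; 1212 points lie below it. Right, median width at 3 h by quintile of tag density for regions called at both times (circles) and at 3 h alone (squares); regions of both times are the wider in every quintile, by 812 against 752 bp in the highest. They also have the higher median tag density in every quintile.

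Regions of 3 h alone were weak as a class but included strong ones. Tag density had a median of 16.7 (quartiles 13.5 and 20.8) in this class and 27.5 (20.0 and 38.9) in regions of both times, and width a median of 464 and 703 bp. Within quintiles of tag density they were also the narrower, with medians of 291 against 367 bp in the lowest quintile and 752 against 812 bp in the highest. Within quintiles they were also the weaker, with median tag densities of 11.6 against 12.4 in the lowest and 33.2 against 39.3 in the highest. A wider region also meets the other list more readily, so width is not separated from strength or from the overlap rule. The strongest was chr12:120345864-120346821, with a tag density of 77.7 and rank 49 of the 4972 regions, so every region ranked above it at 3 h was called at 8 h.

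The next was chr1:80599448-80600287 (70.9, rank 71), which lay 5851 bp from an 8 h region. After it came chr3:107578449-107579446 (65.5, rank 102), 707823 bp from any 8 h region, and chr12:8393101-8394178 (63.9, rank 111). The other 4 were chr13:42469351-42470251 (rank 122), chr3:148882750-148883835 (139), chr5:118874369-118875397 (153) and chr11:83345344-83346185 (161). All 8 lay between 839 and 1085 bp in width. Of the 8, 5 overlapped GR with LPS and Dex and 2, on chromosomes 1 and 13, also GR with Dex. In the highest quintile of tag density, the shares of regions at 3 h alone that met these GR lists were 69.0% and 26.5%, near these counts. The same 2 regions were called at 8 h with late Dex, against 13 of 3416 (0.381%) in the whole class of 3 h alone. That share was not split by tag density.

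Regions of 8 h alone were weaker than the shared ones within the 8 h list. Their median tag density was 20.3 (17.6 and 23.9) against 26.7 (20.9 and 37.0), their median width 440.5 against 576 bp, and their median percentile rank 25.9 against 55.4. The exception at the top was chr3:60275768-60276480, with a tag density of 76.2 and rank 52 of 1878, and the nearest 3 h region lay 281476 bp away. The next was chr13:35349943-35350855, with 42.9 and rank 290.

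The other 6 had tag densities from 42.0 down to 38.6: chr8:47492022-47492631, chr12:56461828-56462546, chr5:99803413-99804030, chr17:10932866-10933565, chr13:5803681-5804212 and chr13:20875972-20876647. The region at 5803681 lay 14661 bp from the nearest 3 h region. All 8 lay in the highest quintile of tag density of the 8 h list. GR with LPS and Dex met all 8, and in that quintile it met all 9 unshared regions and 97.3% of the shared ones. GR with Dex met none of the 8 and none of the 9, against 27.0% of the shared ones there. Over the whole class of 8 h alone the shares were 72.8% and 8.28%. The region at 35349943 on chromosome 13 was the only 1 of the 8 called with late Dex, against 3 of 302 (0.993%) in the class. That share was not split by tag density.

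The boundary of the overlap rule touched few regions. The smallest overlaps that counted as shared were 77 bp at chr11:87572052-87572618, 88 bp at chr7:108177367-108177652 and 89 bp at chr11:97183307-97183703. Just outside the rule, chr15:59312407-59312658 at 3 h lay 17 bp from the 8 h region 59312675 to 59313478, chr19:10058008-10058750 lay 35 bp from 10057542 to 10057973, and chr15:31279381-31280219 lay 36 bp from 31278670 to 31279345. In all, 5 regions of 3 h alone and 0 of 8 h alone came within 100 bp of a region of the other time.

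Unshared regions lay at a wide range of distances from the other list. Of the 3416 regions at 3 h alone, 2.46% (1.99 to 3.03) lay within 1000 bp of an 8 h region 13.6% (12.4 to 14.7) within 10000 bp and 35.7% (34.1 to 37.3) within 100000 bp, and the median gap was 222518 bp. Of the 302 at 8 h alone, 4.97% (3.03 to 8.03) lay within 1000 bp of a 3 h region 25.8% (21.2 to 31.0) within 10000 bp and 63.6% (58.0 to 68.8) within 100000 bp, with a median gap of 40694 bp. The 3 h list is the longer, which by itself brings its regions nearer, so the 2 medians are not to be compared.

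**Figure D4:**
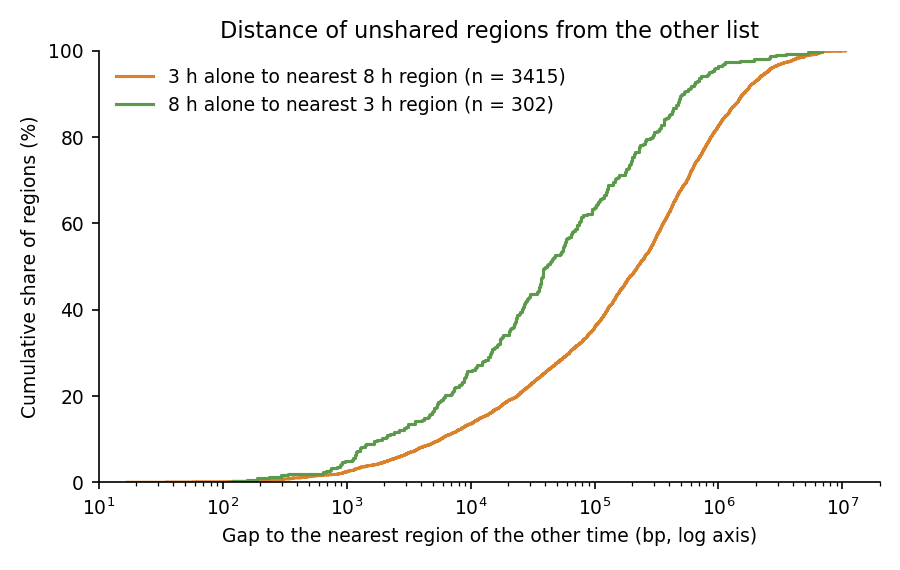
Cumulative share of regions (%, vertical axis) by the gap in bp to the nearest region of the other time (log axis), for regions of 3 h alone and of 8 h alone; 1 region of 3 h alone, with no 8 h region on its chromosome, is not drawn. The curve of 8 h alone lies to the left from 1000 bp on, against a longer list, with 25.8% within 10000 bp against 13.6%.

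Neighbouring 3 h regions tended to share their class. Where the nearest other 3 h region within 10000 bp was called at both times, 47.6% of regions were called at 8 h (43.8 to 51.5; 304 of 638). The share was 31.2% (28.5 to 34.0; 337 of 1080) where that neighbour was of 3 h alone and 28.1% (26.6 to 29.7; 915 of 3254) where there was none. The difference was also seen among weak regions: with a tag density at or below the list's median, the shares were 24.3% (19.2 to 30.3), 8.90% (6.58 to 11.9) and 11.9% (10.5 to 13.5). Above the median they were 60.4% (55.6 to 65.0), 46.4% (42.6 to 50.3) and 48.8% (46.3 to 51.4). Neighbours can count for each other, so these intervals are too narrow.

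Even so, many groups were mixed. When regions of both lists with gaps of up to 10000 bp were joined into runs, 685 runs held 2 or more 3 h regions. All of these 3 h regions were called at 8 h in 101 runs, none in 268, and some in 316 (46.1%). In the run with the most regions, chromosome 11 from 117820995 to 117853564, 5 of 12 regions at 3 h were called at 8 h. The highest tag density there was 96.3 at 3 h and 90.5 at 8 h. With their scaling between libraries not stated, these values show neither change nor constancy. On chromosome 11 from 86393914 to 86438433, 5 of 11 regions at 3 h were called at 8 h, and on chromosome 14 from 103432588 to 103459748, 5 of 9 were.

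By the share of 3 h regions called at 8 h, the other 2 of the 5 largest runs stood at opposite ends. On chromosome 4 from 144844115 to 144873557, 6 of 8 regions at 3 h were called at 8 h, and all 8 overlapped GR with LPS and Dex. On chromosome 12 from 27125626 to 27154834, 1 of 13 was called at 8 h, and 1 of 13 overlapped GR with LPS and Dex. The region called at 8 h was chr12:27125626-27128222, which did not overlap GR with LPS and Dex. In the runs named before these, 5 of 12, 7 of 11 and 5 of 9 overlapped it, in the order given. Over the whole 3 h list, it met 88.8% of regions called at both times and 49.9% of those at 3 h alone. The runs were picked by size, and a link between the 2 counts was not tested.

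The lists of GR, a ligand-activated transcription factor that can reach chromatin by binding DNA or through other factors, were a readout the classes did not use. GR was mapped in cells given Dex or LPS and Dex, with treatment times not in the labels, after cross-linking with disuccinimidyl glutarate and then formaldehyde. Each had 1 library. Outside input there were 54875 regions for Dex and 51358 for the combined treatment.

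GR with LPS and Dex was found at most shared RelA regions and at fewer of 3 h alone. It met 88.8% of the 3 h regions called at both times (87.1 to 90.2; 1381 of 1556), 49.9% of those at 3 h alone (48.2 to 51.6; 1704 of 3416) and 72.8% of those at 8 h alone (67.6 to 77.6; 220 of 302). The strongest GR region met by each RelA region ranked high in its own list, with median percentile ranks of tag density of 93.6, 90.0 and 89.1. GR with Dex met 20.9% (18.9 to 23.0), 16.0% (14.8 to 17.2) and 8.28% (5.67 to 11.9) of the same classes. The median ranks of the strongest GR region met were 97.0, 97.2 and 95.2 in that list. Regions of 1 library are not replicates, so these differences have no test.

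The gap between classes for GR with LPS and Dex was present in every quintile of RelA tag density at 3 h. In the lowest quintile the shares were 86.0% (77.2 to 91.8; 86 regions) at both times and 37.1% (34.0 to 40.3; 903) at 3 h alone. In the middle quintile they were 83.7% (78.1 to 88.2; 203) and 52.8% (49.2 to 56.2; 781), and in the highest 90.8% (88.5 to 92.7; 752) and 69.0% (62.9 to 74.4; 245). Among shared regions the share thus stayed between 83.7% and 90.8%, while at 3 h alone it rose with tag density. Within the quintiles the shared regions were somewhat stronger, with a median tag density of 39.3 against 33.2 in the highest.

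For GR with Dex the intervals of the 2 classes overlapped in each quintile of the 3 h list. The shares at both times and at 3 h alone were 11.6% (6.44 to 20.1) and 12.5% (10.5 to 14.8) in the lowest quintile, 17.2% (12.7 to 23.0) and 16.4% (14.0 to 19.1) in the middle, and 25.1% (22.2 to 28.4) and 26.5% (21.4 to 32.4) in the highest. Overlap of the intervals does not show that the shares were alike. Wider regions meet other lists more readily; with the centre of the 3 h region required to lie inside a GR region, GR with LPS and Dex met 86.8% (85.1 to 88.4) of shared regions and 47.9% (46.2 to 49.5) of those at 3 h alone.

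**Figure D5:**
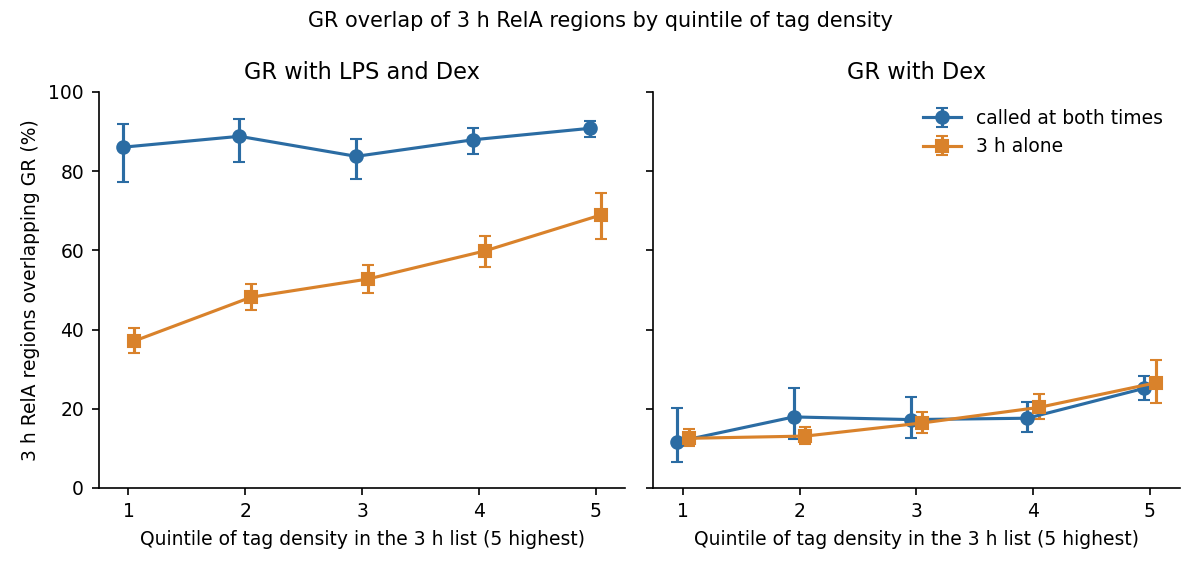
Share of 3 h RelA regions that overlap a GR region (%, vertical axis) by quintile of RelA tag density at 3 h, for GR with LPS and Dex (left) and GR with Dex (right), with Wilson 95% intervals; circles are regions called at both times and squares regions of 3 h alone. On the left the squares rise from 37.1% to 69.0% under circles at 83.7% to 90.8%, and on the right the intervals overlap in every quintile.

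In the 8 h list the same GR list met fewer of the unshared regions in 4 of 5 quintiles. The shares at both times and at 8 h alone were 83.9% (78.9 to 87.9) and 69.7% (61.0 to 77.3) in the lowest quintile and 91.1% (87.7 to 93.7) and 78.6% (60.5 to 89.8) in the fourth. In the highest, 356 of 366 shared regions (97.3%) and all 9 unshared met it. For this GR list the intervals of the 2 classes were apart only in the lowest quintile. GR with Dex met fewer of the unshared 8 h regions in all 5 quintiles. From the lowest to the highest, its shares were 19.6%, 16.1%, 20.1%, 17.4% and 27.0% at both times and 9.24%, 4.55%, 12.1%, 10.7% and 0% at 8 h alone. The intervals were apart only in the second quintile (12.3 to 20.7 and 1.78 to 11.1), and the highest held 9 unshared regions.

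Rank shifts of pairs also differed by GR. The 172 pairs without GR of LPS and Dex had a median shift of -6.50 percentile points from 3 h to 8 h (quartiles -27.6 and 10.4), against 1.11 (-11.4 and 13.9) for the 1358 with it. At least 20 points were lost by 32.0% of the former and 17.4% of the latter. The medians were -12.1 and 0.588 among pairs whose mean percentile rank over the 2 times was above 50 (50 and 681 pairs), and -3.33 and 1.99 among the others (122 and 677). For GR with Dex the order was the other way: the 316 pairs with it had a median shift of -1.29 (-16.7 and 8.10) and the 1214 without it 1.55 (-12.5 and 14.8).

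Seen from the shifts, GR with Dex met 13.7% (10.1 to 18.3) of the 271 pairs that ranked at least 20 points higher at 8 h, 21.5% (19.0 to 24.2) of the 968 that moved less, and 24.4% (19.8 to 29.6) of the 291 that ranked lower. GR with LPS and Dex met 88.6% (84.2 to 91.8), 91.1% (89.2 to 92.7) and 81.1% (76.2 to 85.2) of them.

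The other RelA libraries met shared regions far more often than regions of 3 h alone. The exception was pretreatment and 8 h of LPS, where few regions were met. In resting cells RelA was called at 36 of the 1556 shared 3 h regions (2.31%, 1.68 to 3.19), at 1 of 3416 of 3 h alone and at none of 302 of 8 h alone. The 34 resting regions among the pairs had a median percentile rank of 94.2 at 3 h and 94.3 at 8 h, and none of them moved by 20 points or more. Near the top of the ranks there is little room to rise. RelA at 8 h of LPS with late Dex was called at 198 shared 3 h regions (12.7%, 11.2 to 14.5), at 13 of 3 h alone (0.381%, 0.223 to 0.650) and at 3 of 8 h alone (0.993%, 0.338 to 2.88). After Dex pretreatment and 3 h of LPS it was called at 12 shared regions and at none of 3 h alone or 8 h alone, and with pretreatment and no LPS at 30 and none. For pretreatment and 3 h of LPS, the interval of 8 h alone (0 to 1.26%) overlapped that of shared regions (0.442 to 1.34%). After pretreatment and 8 h RelA was called at 3 shared regions, at 1 of 3 h alone and at none of 8 h alone. All 5 lists are short, with 15 to 225 regions outside input. Regions of both times were also stronger than those of 3 h alone, with median tag densities of 27.5 and 16.7 at 3 h. Shares at like tag density were not compared for these RelA lists, so the part of strength in the differences was not tested.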

How the data were processed

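RelA was profiled by ChIP-seq with 51 nt single-end reads, and 1 list of regions per library was used. CASAVA and build mm9 are named in the submitters' processing notes; the region caller and its threshold are not given in the sources used here. Per the file headers, each deposited region has a highest and a mean tag density (signal values whose scaling is not stated), and a score (a z-score) and a p-value given by the authors' region caller; the p-values were not used. Coordinates are printed as deposited; whether starts count from 0 or 1 is not stated, and width is end minus start.

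Lists were compared in Python 3.11.15 with pandas 2.3.3. Regions overlapping input by 1 bp were removed, classes were set by 1 bp overlap, and Wilson 95% intervals came from statsmodels 0.14.6. Percentile ranks used mean ranks for ties. Overlap and rank code was tested on simulated lists with known overlaps. The regions named are the 10 pairs with the lowest summed rank, the 8 largest rises and falls, the 8 strongest unshared regions of each time, the 4 largest width ratios in each direction, the 3 smallest overlaps, the 3 nearest misses and the 5 largest runs. Members and lists were chosen with earlier results of these data known.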

Additional observations from a re-analysis of the deposited data

How the results depend on the processing

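With 1 library per time, no replicate could be left out. No paired analysis was possible because each group has 1 library. Of 50 values under alternatives, 30 stayed within the interval of the main value (within 0.1 for correlations) and 20 moved. No correlation changed sign, and a reversal was not defined for shares. With the 3 h list shortened, most of its regions were called at 8 h, unlike in the full list. Where a value moved, the cause was not tested beyond what the alternative itself changes. The share of 3 h regions called at 8 h was 27.8% when 50% of both regions had to overlap, 27.4% with centres within 100 bp, 42.1% with the lowest score set to 10.9 in both lists, 59.5% with the 3 h list shortened and 32.7% in the higher-scoring 50% of each list. The share of 8 h regions called at 3 h was 73.7%, 72.5%, 76.8%, 60.5% and 87.1% in the same order, and 80.7% with centres within 250 bp. The correlation of widths was 0.67 with 50% overlap. The shares of shared, 3 h alone and 8 h alone regions meeting GR with LPS and Dex were 78.5%, 39.3% and 54.97% with the higher-scoring 50% of the GR list and 79.9%, 36.6% and 56.3% with 50% overlap. With RelA centres inside GR regions, added after seeing the data, the first and second were 86.8% and 47.9%. The order of the 3 classes was the same under these settings. Library depth is not given, and its part in the classes was not tested.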

Other observations

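The 2 times differed little between chromosomes at 3 h and more at 8 h. Over the autosomes and chromosome X, the share of 3 h regions called at 8 h ran from 26.4% on chromosome X (19.0 to 35.3; 110 regions) to 39.1% on chromosome 16 (32.7 to 45.9; 207). The share of 8 h regions called at 3 h ran from 62.5% on chromosome X (48.4 to 74.8; 48 regions) to 91.6% on chromosome 1 (84.8 to 95.5; 107). It was 72.3% on chromosome 13 (62.6 to 80.4; 94), which also held 3 of the 8 strongest regions of 8 h alone and 2 of the 8 pairs that climbed furthest. These chromosomes were singled out after their values were seen.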
